A study of Sus scrofa with 6 samples.

Results

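Heat shock chaperone genes were followed in pig midbrain-like organoids (pMLOs) from day 11 to day 45 of culture. The 6 genes, HSPA8, HSP70.2, HSPH1, DNAJB1, HSPB1 and HSP90AA1, were listed by symbol, and 5 of them had a row among the 30477 genes of the data; HSP90AA1 matched no row and was not analysed here. HSP70.2 carried only an Ensembl number in the data and was named through a reference table. The list was chosen from earlier results of these data, in which HSPH1 and HSP70.2 stood out in a neuron-like group of cells. Values of these 2 genes in neuron-like cells, and of any member in neuron-like against other cells, are therefore given as a description, with no p. Such cells, taken here as positive for the marker STMN2, held 72.3% and 58.0% of the HSPH1 counts of the D45 libraries (A and B). For HSP70.2 they held 62.4% and 39.7%. The p-values of these 2 genes over all cells thus rest in large part on the values that chose them, and are no separate support. Between D11 and D45, HSPH1 and HSP70.2 rose over all cells, whereas HSPA8 and HSPB1 did not pass the test. The rise of HSP70.2 lost its call when any of 3 single libraries was left out.

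Heat shock chaperones are proteins that bind unfolded or newly made proteins and keep them from clumping. HSP70 proteins bind and release their clients in an ATP-driven cycle. DNAJ (HSP40) proteins bring the clients and start ATP hydrolysis, HSP110 proteins such as HSPH1 exchange the nucleotide, and HSP90 takes over clients that are nearly folded. Small heat shock proteins hold unfolded proteins without using ATP. Transcription of the inducible members is driven by heat shock factor 1, which binds heat shock elements made of alternating GAA and TTC units. The constitutive HSP70 protein HSPA8 also takes the clathrin coat off vesicles, a step that synapses depend on, and astrocytes are known for small heat shock proteins.

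Upstream sequences are shown for the members whose window held the letters of such an element. The list was not chosen by a response to heat shock factor, and no such response was measured. The 500 bases before each RefSeq gene start (Sscrofa11.1) were searched for GAANNTTC and TTCNNGAA. Each motif is its own reverse complement, so 1 search covers both strands, and overlapping matches of both motifs form 3 alternating units. Capitals mark the matched letters.
HSPA8, chr9:49986962-49986990, minus strand, 222 to 210 bases before the start: gcgagaatGAAAGTTCCAGAAcgctgcgg
HSPA8, chr9:49986795-49986823, minus strand, 55 to 43 bases before the start: cgggccccTTCTGGAAGGTTCtgaggccg
HSP70.2, chr7:23925629-23925658, plus strand, 289 to 282 bases before the start: cgaaacctctgGAATATTCccgacctggca
HSPB1, chr3:10039660-10039689, minus strand, 237 to 230 bases before the start: ctcaaacaggaGAAGGTTCcagatgtgggc
HSPA8 held 3 alternating units at both of its places, HSP70.2 and HSPB1 a single pair of units, and HSPH1 and DNAJB1 no match in this window. Of 20657 windows of the same length, 22.1% held either motif and 0.731% held 3 alternating units. GAANNTTC alone was in 11.8% and TTCNNGAA in 12.4%. The RefSeq model of HSP70.2 holds the coding sequence only, so its window is counted from the start codon. A match is a description of letters and not of binding.

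On Sscrofa11.1, HSPA8 lay at 9:49982278-49986760 and HSPH1 at 11:7733874-7759528, both on the minus strand. HSP70.2 lay at 7:23925929-23927854 and DNAJB1 at 2:64761672-64764482, both on the plus strand, and HSPB1 lay at 3:10038074-10039441 on the minus strand. HSP70.2 has close copies among the HSP70 genes, which can share its reads, so its counts and those of HSPA6 and HSPA1L are uncertain to that extent.

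The organoids were made from 1 pig embryonic stem cell line, IVF_1_ pESC_FIW, derived from an in vitro fertilised blastocyst, and the groups were D11, D28 and D45 of organoid culture with 2 libraries each, labelled A and B. The stem cells were grown on mouse embryonic fibroblast feeders, and a plating step on gelatin before organoid formation was meant to remove these. By the labels the groups differed in day alone, and with 1 line they hold no genetic replicate. By the paper's protocol, however, the organoids were embedded in Matrigel after D11 and then kept on a shaker in another medium. That medium held GDNF, db-cAMP and DAPT, and FGF8 was no longer added. Between D11 and the later days, the part of culture time therefore cannot be told apart from that of medium and handling. The assay was droplet-based single-cell RNA sequencing (10x Genomics, 3′ kit), in which each captured RNA molecule is counted as a unique molecular identifier (UMI). The number of organoids behind a library is not given in the sources used here, so p-values measure the spread between these libraries, which may be partly technical.

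Between 13870 and 21553 cells per library were kept, with 106805311 to 180034791 UMIs per library, and of 103555 distinct barcodes 1247 occurred in 2 libraries and 9 in 3. The median depth was 2300.5 UMIs per cell in D45 A and 4341 in D45 B, against 5505 to 10757 in the other 4 libraries. The labels name the cell type as midbrain dopaminergic neurons. TH, which makes the dopamine precursor, stood at 11.5 to 55.1 CPM (UMIs scaled to 1000000 UMIs of the same cells) in the 6 libraries, and SLC6A3, the dopamine transporter, at 0.294 to 2.56 CPM, and the libraries held cells of many other kinds. Cells with at least 2 UMIs of STMN2, and under 2 of AQP4 and COL1A1, numbered 1954 and 3085 in the D11 libraries (A and B), 7290 and 7051 in those of D28, and 9270 and 7408 in those of D45. All 7 neuron markers were higher in them than in the other cells of every library. The gap narrowed with time: the markers summed to 4391 and 4095 CPM against 277 and 248 CPM in the other cells on D11. On D45 they summed to 2189 and 2771 CPM against 797 and 685 CPM. COL1A1-positive cells, defined in the same way, numbered 65 and 48, 843 and 132, and 434 and 1167. Their 6 fibroblast markers summed to 4451 to 8629.8 CPM on D28 and D45, but to 52.0 and 569 CPM in D11 A and D11 B, so the D11 cells are named here by COL1A1 alone. AQP4-positive cells numbered 0 in both D11 libraries, 16 and 9 in those of D28, and 397 and 540 in those of D45, and they were analysed on D45 only, where 4 of 5 astrocyte markers were higher in them than in the other cells of each library.

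Over all cells, HSPH1, the HSP110 nucleotide exchange factor, showed the largest rise of the 5 members between D11 and D45. It stood at 35.3 and 32.6 CPM on D11, at 80.1 and 133 on D28 and at 260.0 and 133 on D45 (replicates A and B). Every D28 and D45 library lay above both D11 libraries, and D45 B stood no higher than D28 B. The log2 fold change was 1.36 ± 0.315 (SE, n = 2 libraries a day) between D11 and D28 (adjusted p = 0.0232, edgeR) and 2.11 ± 0.322 between D11 and D45 (adjusted p = 0.00333). Without D11 A or D11 B the call for D28 was lost, with adjusted p = 0.133 and 0.128, while the call for D45 held without any single library, at log2 1.60 to 2.48. In counts summed over all cells, fewer cells of a type and less RNA per cell cannot be told apart.

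HSP70.2, listed by RefSeq with the synonyms HSPA1A and HSPA1B and known as a stress-inducible HSP70, stood at 56.2 and 49.96 CPM on D11, at 58.6 and 128 on D28 and at 239 and 114 on D45. Both D45 libraries lay above both D11 libraries, and D45 A stood well above D45 B. It rose between D11 and D45 by a log2 fold change of 1.31 ± 0.391 (adjusted p = 0.0382, edgeR). The call was lost without D45 A, where the log2 fold change was 0.73 with adjusted p = 0.249, and without D11 A (adjusted p = 0.127) or D11 B (adjusted p = 0.155). With the replicate letter as a block the adjusted p was 0.0683.

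HSPA8, the constitutive HSP70, stood at 477 and 496 CPM on D11, at 980.4 and 836 on D28 and at 641 and 660.3 on D45. Its highest libraries were both of D28, and the 3 days did not overlap. The log2 fold change was 0.65 ± 0.241 between D11 and D28 (adjusted p = 0.0927, edgeR) and −0.64 ± 0.241 between D28 and D45 (adjusted p = 0.124), and neither passed the test. DESeq2 called the first of these (adjusted p = 0.0302), and edgeR did so with D28 B left out (log2 0.86, adjusted p = 0.00388) and with library totals in place of its scaling factors (log2 0.90, adjusted p = 0.0194). Without D28 B the second was called as well (log2 −0.86, adjusted p = 0.00483).

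DNAJB1, an inducible HSP40 protein and partner of HSP70, stood at 37.9 and 40.2 CPM on D11, at 82.4 and 78.1 on D28 and at 99.97 and 55.7 on D45. All 4 later libraries lay above both D11 libraries. Its log2 fold change was 0.79 ± 0.268 between D11 and D28 (adjusted p = 0.0750, edgeR) and 0.58 ± 0.267 between D11 and D45 (adjusted p = 0.138), and neither was called. The first was called by DESeq2 (log2 0.78, adjusted p = 0.0417) and with library totals (log2 1.04, adjusted p = 0.0348), and the second was called with library totals. With 1 library on D28, the first was 0.93 without D28 B and the second 0.63 without D28 A. HSPB1, the small heat shock protein HSP27, ranged from 150.1 to 209 CPM over the 6 libraries, with D11 and D45 overlapping. Its log2 fold change of −0.42 between D11 and D45 was not called. Of 14 alternatives, only the fit without D28 B called it, at a nearly equal log2 of −0.43.

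Of the 5 members, edgeR called 1, HSPH1, between D11 and D28, where 23.1% of all 22192 genes tested were called. An unadjusted p under 0.05 was found for 3 members and for 8436 of all genes, and DESeq2 called 3 members. Between D11 and D45 edgeR called 2, where 34.6% of all genes were called, and DESeq2 called 2. The 2 in edgeR were HSPH1 and HSP70.2, which chose the list, and HSPA8, DNAJB1 and HSPB1 were not called. These counts are therefore not independent of the choice of the list. Between D28 and D45 edgeR called 0 of 5, against 9.40% of all genes. Here 2 members and 6957 of all genes had an unadjusted p under 0.05, and DESeq2 called 0 members. Without D28 B, which left 1 library on that day, the log2 fold changes in that step were 1.01 for HSPH1 and 1.31 for HSP70.2. Leaving out 1 library also moved the number of genes called widely, as given below. The members' median log2 fold change was 0.58 between D11 and D45, with the 2 genes that chose the list among them, against −0.01 over all genes. The fold changes rest on the scaling. With library totals alone, in place of the TMM factors that edgeR estimates, the median over all genes between D11 and D45 moved from −0.01 to 0.40 and the share of calls that were rises from 49.8% to 74.6%. On that scale HSPH1 and HSP70.2 changed by 2.53 and 1.73 on the log2 scale, both called, DNAJB1 by 1.00 with adjusted p = 0.0300 and HSPA8 by 0.42 with adjusted p = 0.143. The corresponding shares of rises moved from 54.3% to 77.2% between D11 and D28, and from 47.5% to 59.0% between D28 and D45.

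**Figure D1:**
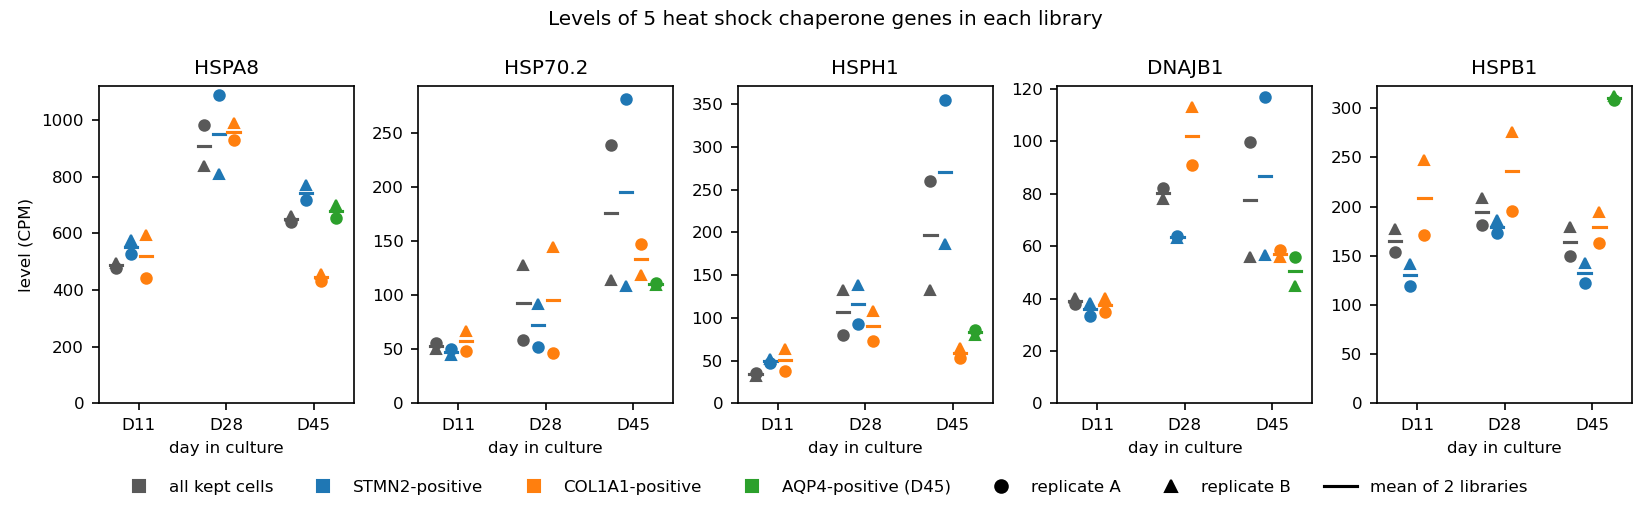
Levels of the 5 members in CPM (UMIs per 1000000 UMIs, linear axes from 0, 1 panel per gene) on each day, over all kept cells and in cells positive for STMN2, COL1A1 or AQP4; circles are replicate A, triangles replicate B and bars the mean of 2 libraries. HSPH1 in STMN2-positive cells reached 355 and 186 CPM on D45, against 52.7 and 64.8 CPM in COL1A1-positive cells of the same libraries.

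In STMN2-positive cells, which are neuron-like, the levels of HSPH1 and HSP70.2 were higher in both D45 libraries than in both D11 libraries. HSPH1 stood at 47.2 and 52.4 CPM on D11, at 92.4 and 139 on D28 and at 355 and 186 on D45, and the 3 days did not overlap. The log2 fold change between D11 and D45 was 2.15 ± 0.316, or 4.43-fold (edgeR), and without a single library it ran from 1.60 to 2.49. HSP70.2 stood at 50.6 and 45.2 CPM on D11, at 52.3 and 92.1 on D28 and at 282 and 109 on D45. The log2 fold change between D11 and D45 was 1.74 ± 0.410. D45 A stood far above the other 5 libraries, and without it the log2 fold change of HSP70.2 was 0.88. Other markers moved within this class over the same days. Between D11 and D45 the 7 neuron markers summed to 4391 and 4095 CPM and then to 2189 and 2771 CPM, and the 4 mitotic markers to 458 and 556 and then to 135 and 163 CPM. The oligodendrocyte lineage markers went from 7.11 and 6.91 to 686 and 521 CPM, the astrocyte markers from 39.9 and 38.0 to 205 and 222 CPM and the fibroblast markers from 6.19 and 11.4 to 184 and 342 CPM. Their part in these levels was not tested.

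DNAJB1 in the same cells stood at 33.5 and 38.5 CPM on D11, at 63.9 and 63.2 on D28 and at 117 and 56.5 on D45. Its log2 fold change of 0.98 ± 0.322 between D11 and D45 missed the threshold in edgeR (adjusted p = 0.0583) and passed it in DESeq2 (adjusted p = 0.0234) and in 5 of the other 16 alternatives. D45 A carried much of it: the log2 fold change was 0.34 without D45 A (adjusted p = 0.456) and 1.36 without D45 B (adjusted p = 0.0208). HSPA8 stood at 526 and 575 CPM on D11, at 1087 and 811 on D28 and at 716 and 769 on D45, so both D28 libraries lay above all others, and no change passed with all libraries. HSPB1 ranged from 119.7 to 186 CPM and none of its changes passed with all libraries. Without D28 B, the log2 fold change of HSPA8 was 0.91 between D11 and D28 and −0.81 between D28 and D45. That of HSPB1 was −0.64 between D28 and D45.

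HSPH1 and HSP70.2 are left out of the counts in STMN2-positive cells, because the list was chosen for their levels there. Of the other 3 members edgeR called 0 between D11 and D45, against 26.2% of 20267 genes. An unadjusted p under 0.05 was found for 1 member and for 8108 of all genes, and DESeq2 called 1 member, DNAJB1. Between D11 and D28 edgeR called 0 of 3, against 14.8% of all genes. Here 0 members and 6290 of all genes had an unadjusted p under 0.05, and DESeq2 called 0 members. Between D28 and D45 edgeR called 0 of 3, against 5.72% of all genes. Here 1 member, HSPB1, and 5805 of all genes had an unadjusted p under 0.05, and DESeq2 called 0 members. The log2 fold changes of HSPH1 were 1.02 between D11 and D28 and 1.13 between D28 and D45, and that of HSP70.2 in the second step was 1.36. With library totals alone, the share of calls that were rises moved from 49.4% to 69.8% between D11 and D45, and from 51.1% to 70.4% between D11 and D28.

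In COL1A1-positive cells the highest levels of HSPA8 and DNAJB1 were on D28, as were those of HSPA8 over all cells and in STMN2-positive cells. DNAJB1 stood at 34.7 and 40.3 CPM on D11, at 90.9 and 113 on D28 and at 58.4 and 55.7 on D45, with no overlap between the days. It rose between D11 and D28 by a log2 fold change of 1.53 ± 0.237 (adjusted p = 0.00839, edgeR). The D11 sums came from 65 and 48 cells with 30 and 29 UMIs of DNAJB1 (exact Poisson 95% intervals of 23.4 to 49.5 and 27.0 to 57.8 CPM, counting error only), and the call was lost without D11 A (adjusted p = 0.116) or D11 B (adjusted p = 0.0525). HSPA8 stood at 444 and 594 CPM on D11, at 929.7 and 988 on D28 and at 433 and 457 on D45. Its log2 fold change between D28 and D45 was −1.14 ± 0.279 (adjusted p = 0.0665), and it passed in 5 of 17 alternatives. HSPH1 stood at 38.1 and 63.9 CPM on D11, at 73.2 and 108 on D28 and at 52.7 and 64.8 on D45, so D11 and D45 overlapped. HSP70.2 spread widely, at 48.5 and 66.6 CPM on D11, at 46.9 and 145 on D28 and at 148 and 119 on D45, and its log2 fold change of 1.27 ± 0.443 between D11 and D45 was not called (adjusted p = 0.0811), but passed in 5 of 17 alternatives. HSPB1 stood at 163 to 276 CPM, and D11 overlapped both later days.

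In these cells edgeR called 1 of 5 members between D11 and D28, against 12.1% of 13335 genes. An unadjusted p under 0.05 was found for 3 members and for 4124 of all genes, and DESeq2 called 2 members. Between D28 and D45 edgeR called 0 of 5, against 3.03% of all genes. Here 2 members and 3319 of all genes had an unadjusted p under 0.05. DESeq2 called 2 members, HSPA8 and DNAJB1, and called more of all genes than edgeR did, as given below. Between D11 and D45 edgeR called 0 of 5, against 20.04% of all genes. Here 2 members and 4604 of all genes had an unadjusted p under 0.05, and DESeq2 called 1 member, HSP70.2. On D11 the COL1A1-positive cells of replicate A lacked most of the fibroblast signal, at 52.0 CPM over 6 markers, and its part in the comparisons with D11 was not tested.

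**Figure D2:**
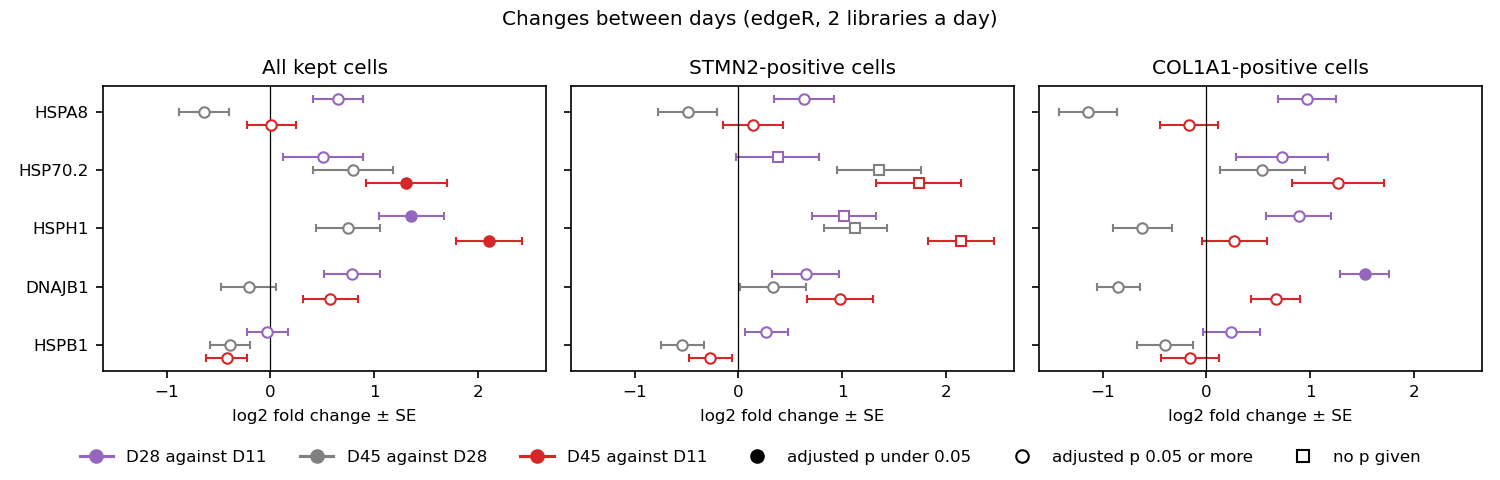
Log2 fold change ± SE of each member between days (edgeR, 2 libraries a day), over all kept cells, in STMN2-positive and in COL1A1-positive cells; filled circles passed an adjusted p under 0.05, open circles did not, and squares are HSPH1 and HSP70.2 in STMN2-positive cells, given with no p. HSPH1 moved by 2.11 over all cells and 2.15 in STMN2-positive cells between D11 and D45, and by 0.27 in COL1A1-positive cells. In all cells other than STMN2-positive ones, which are not drawn, it stood at 33.2 and 28.2 CPM on D11 and at 153 and 96.0 CPM on D45. Neuron markers in those cells summed to 277 and 248 CPM on D11 and to 797 and 685 CPM on D45.

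The change between days in COL1A1-positive cells was set against that in STMN2-positive cells with the library as a block. This holds the contrast of neuron-like against other cells that chose HSPH1, so the values are a description and no p is given. For D28 to D45, the change of HSPH1 in COL1A1-positive minus that in STMN2-positive cells was −1.70 ± 0.369 on the log2 scale, and edgeR called 2.09% of 19521 genes in this comparison. It was −1.08 without D45 A and −2.35 without D45 B. DNAJB1 (−1.10 ± 0.321), HSPA8 (−0.70 ± 0.204) and HSP70.2 (−0.57 ± 0.375) lay on the same side, and HSPB1 (0.13 ± 0.191) did not. The median over all genes was 0.01. For D11 to D45, which was added after the data were seen, it was −1.70 ± 0.406, against a median of 0.29 over all genes, and 16.5% of 18317 genes were called. The D11 to D45 value was −1.07 without D45 A, −2.35 without D45 B, −1.36 without D11 B and −1.25 with positivity set from 3 UMIs. With library totals alone it was −2.12, where the median over all genes was −0.14 and the share of calls that were positive moved from 72.4% to 39.2%. With DESeq2 size factors in edgeR it was −1.86, with a median of 0.13 and a share of 61.3%. For D11 to D45 the other 4 members lay between −0.22 and 0.20.

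On D45 the members differed in where they were highest, and the STMN2-positive levels are given as a description. HSPH1 stood at 355 and 186 CPM in STMN2-positive, at 85.3 and 80.5 in AQP4-positive and at 52.7 and 64.8 in COL1A1-positive cells (A and B), in the same order in both libraries. The ratio of STMN2-positive to COL1A1-positive cells was 6.74 in D45 A and 2.87 in D45 B, against 0.821 to 1.30 in the D11 and D28 libraries. Against all other cells of the library the ratio was 2.32 and 1.94 in the D45 libraries, 1.42 and 1.86 in those of D11 and 1.41 and 1.11 in those of D28, so by this measure D11 B and D45 B lay close together. In those other cells HSPH1 stood at 33.2 and 28.2 CPM on D11, at 65.6 and 126 on D28 and at 153 and 96.0 on D45. Its level was thus higher on D45 than on D11 outside the STMN2-positive class as well, but that remainder is not free of neuron markers. They summed there to 277 and 248 CPM on D11 and to 797 and 685 CPM on D45, and cells positive for 2 or 3 markers are included. In COL1A1-positive cells HSPH1 overlapped between D11 (38.1 and 63.9 CPM) and D45. STMN2-positive cells held 52.9% and 41.6% of all UMIs of the D45 libraries and 72.3% and 58.0% of the HSPH1 UMIs. They held 15.1% and 18.1% of all UMIs and 20.2% and 29.1% of the HSPH1 UMIs in the D11 libraries, and 53.9% and 51.9% against 62.2% and 54.4% in those of D28.

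For HSP70.2 the ratio of STMN2-positive to COL1A1-positive cells on D45 was 1.90 in A and 0.917 in B, so the order of the classes differed between the libraries. DNAJB1 gave 2.00 and 1.01. HSPA8 gave 1.65 and 1.68, and HSPB1, lowest in STMN2-positive cells in both libraries, gave 0.750 and 0.733. HSPH1, HSPA8 and DNAJB1 were thus higher in STMN2-positive than in COL1A1-positive cells of both D45 libraries, DNAJB1 in D45 B by very little. The share of all genes with such ratios was not taken, so the ratios do not set the members apart.

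AQP4-positive cells, which are astrocyte-like, held more HSPB1 and HSPA8 than COL1A1-positive cells on D45. HSPB1 stood at 308 and 313 CPM in AQP4-positive and at 163 and 195 CPM in COL1A1-positive cells, and the classes did not overlap. The log2 difference was 0.70 ± 0.104, or 1.63-fold (adjusted p = 0.00131, edgeR with the library as a block). HSPA8 stood at 654 and 701 CPM against 433 and 457 CPM, a log2 difference of 0.51 ± 0.0962 (adjusted p = 0.00401). HSPH1 (log2 0.37 ± 0.271), HSP70.2 (−0.34 ± 0.297) and DNAJB1 (−0.31 ± 0.235) did not pass. Thus 2 of 5 members were called, both higher in AQP4-positive cells, against 46.4% of 16045 genes called in either direction. The fibroblast markers summed to 609 and 756 CPM in AQP4-positive and 6374 and 8629.8 CPM in COL1A1-positive cells. The mitotic markers summed to 177 and 134 CPM in AQP4-positive and 415 and 304 CPM in COL1A1-positive cells, and their part in the result was not tested.

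How the members varied among STMN2-positive cells of 1 library was described after each cell was thinned to 1000 UMIs, which left out 86 to 2019 cells per library. The Fano factor, the variance over the mean of a gene's UMIs, is 1 when counts vary by sampling alone. For HSP70.2 it was 1.12 and 1.03 in the D11 libraries, 1.11 and 1.63 in those of D28, and 3.78 and 1.71 in those of D45. For HSPH1 it was 1.05 and 1.05, 1.08 and 1.17, and 2.04 and 1.5. DNAJB1 reached 1.74 and 1.31 on D45. HSPA8 stayed between 1.11 and 1.41 and HSPB1 between 1.06 and 1.26 in all 6 libraries at this depth. At 2000 UMIs per cell HSPA8 ran from 1.24 to 1.73 and HSPB1 from 1.09 to 1.40, both highest in D45 A. The values depend on the depth the cells are thinned to: at 2000 UMIs per cell the D45 libraries gave 6.79 and 2.77 for HSP70.2, 3.15 and 2.06 for HSPH1, and 2.39 and 1.84 for DNAJB1. At both depths the spread of HSP70.2 was largest in D45 A, the library with the fewest UMIs per cell before thinning. The factor can also grow with the mean, which was higher on D45. At 1000 UMIs the mean of HSP70.2 was 0.0514 and 0.0477 UMIs per cell on D11 and 0.315 and 0.114 on D45. For HSPH1 it was 0.0450 and 0.0573, and 0.374 and 0.196. The wider spread on D45 is therefore not set apart from the higher level.

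In STMN2-positive cells, HSP70.2 varied with HSPH1 and with DNAJB1 from cell to cell on D45. Pearson's r between HSPH1 and HSP70.2 over the thinned STMN2-positive cells was −0.01 and −0.01 in the D11 libraries, 0.04 and 0.10 in those of D28, and 0.45 and 0.26 in those of D45, with 1868 to 7251 cells per library. Between HSP70.2 and DNAJB1 it was 0.05 and 0.04, 0.13 and 0.15, and 0.42 and 0.27. HSPH1 and DNAJB1 went together less closely, at 0.27 and 0.16 in the D45 libraries, −0.03 and 0.03 in AQP4-positive cells and 0.12 and 0.02 in COL1A1-positive cells of that day. Between HSPA8 and HSPB1, by contrast, it stayed at 0.03 to 0.07. In AQP4-positive cells of D45, r between HSPH1 and HSP70.2 was 0.04 and 0.05, and in COL1A1-positive cells of D45 it was 0.10 and 0.10, at lower levels of HSPH1. Between HSP70.2 and DNAJB1 it was −0.03 and 0.19 in AQP4-positive and 0.02 and 0.24 in COL1A1-positive cells, so in D45 B it came near the 0.27 of STMN2-positive cells. In COL1A1-positive cells of the earlier days, r between HSPH1 and HSP70.2 was −0.04 and 0.44 on D11 (64 and 48 cells). On D28 it was 0.04 and 0.25 (813 and 129 cells), so values of this size were not limited to STMN2-positive cells of D45. These points share a library and counts of few UMIs, and the weak values are no finding. HSPH1 and HSP70.2 were chosen because both stood out in a neuron-like group of cells, so a positive r between them there is not independent of that choice. On D11 only 4.28% and 5.44% of the thinned STMN2-positive cells held a UMI of HSPH1, and 4.76% and 4.59% one of HSP70.2. The values of r on D11 therefore rest on few cells with counts.

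**Figure D3:**
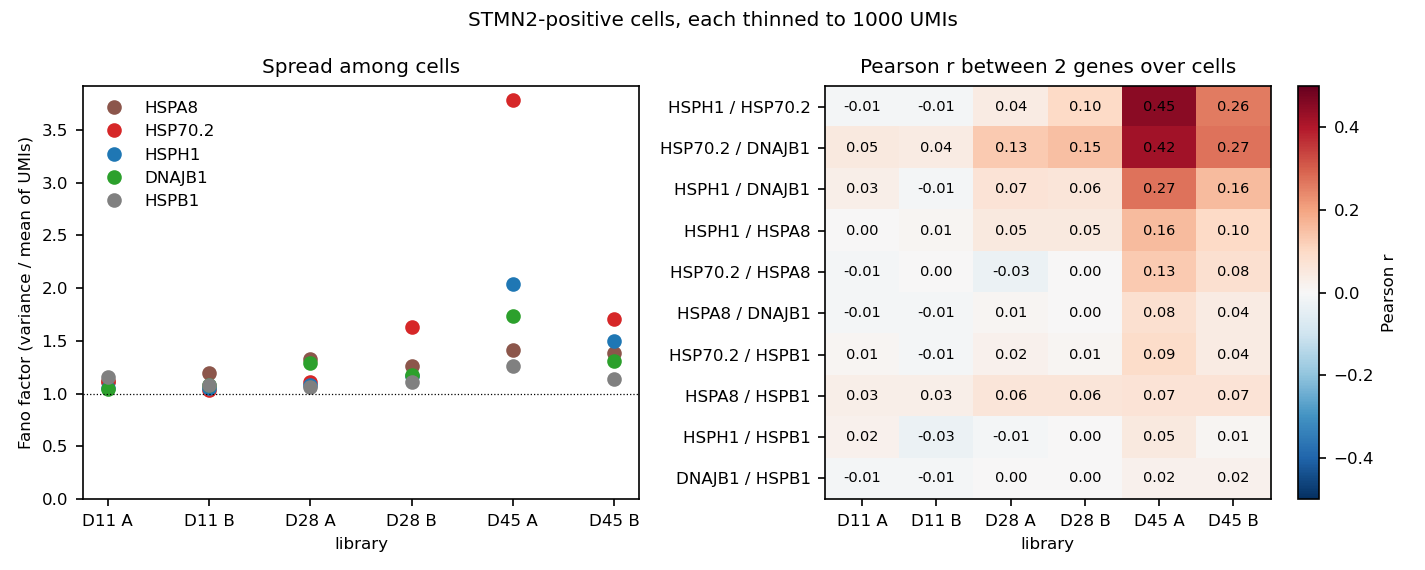
Left, Fano factor (variance over mean of UMIs, linear axis from 0, dotted line at 1) of each member over STMN2-positive cells of each library; right, Pearson r (colour and number) between 2 members over the same cells, each thinned to 1000 UMIs. HSP70.2 reached a Fano factor of 3.78 in D45 A, where its r with HSPH1 was 0.45 and with DNAJB1 0.42. HSPH1 and HSP70.2 were chosen from neuron-like cells of these data, and the Fano factor can grow with the mean.

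Cells with the most member UMIs also held more of other chaperones. STMN2-positive cells were split on the summed UMIs of the 5 members after thinning, at the 25th and 75th percentile as far as ties allowed. HSPA8 gave much of this sum, at a mean of 0.962 of 1.31 UMIs per cell in D28 A and 0.719 of 1.66 in D45 A. High and low cells of D28 A held 1428 and 717 CPM of HSPA8 but 53.2 and 49.5 CPM of HSP70.2. Those of D45 A held 1036 and 454 CPM of HSPA8 and 626 and 69.5 CPM of HSP70.2. The split thus did not rest on the same members on both days. In D45 A, the 2643 cells with at least 2 member UMIs had 9787 CPM summed over 39 other genes, against 5837 CPM in the 2537 cells with none. These 39 were mostly cytosolic or mitochondrial chaperone genes, with the heat shock factor genes HSF1 and HSF2 among them. In D45 B, 2007 and 2337 cells split in the same way had 7666 and 5689.5 CPM. The same split gave 7416 and 6699 CPM in D28 A and 7919 and 6769 CPM in D28 B. Genes of other folding systems went the same way: on D45 the subunits of the chaperonin TRiC summed to 1259 and 849 CPM in D45 A and to 1107 and 854 CPM in D45 B, and the endoplasmic reticulum genes to 3803 and 2590.4 CPM and to 3534 and 2813 CPM. On D28 the TRiC sums were 1153 and 959.7 CPM in A and 1297 and 1077 CPM in B, and those of the endoplasmic reticulum genes 3375 and 3254 CPM and 3460.4 and 3065 CPM. AQP4-positive cells of D45 split in the same way held 6615 and 5915 CPM of the 39 chaperone genes in A and 6319 and 5878 CPM in B. On D11 ties put cells with at least 1 member UMI against those with none, and the sums were 6520.2 against 6229.9 CPM in A and 6862 against 6556 CPM in B, so the split on D11 is not that of the later days. The median depth of the high and low cells was 7907 and 7040 UMIs in D45 A, and the median mitochondrial share was 1.03% and 1.01%. In D45 B the depths were 7355 and 6840 UMIs and the mitochondrial shares 1.53% and 1.21%. The 7 neuron markers summed to 2305 and 2047 CPM in the high and low cells of D45 A and to 3208 and 2361 CPM in those of D45 B. In D28 A the gaps were wider, with 8753.5 and 6098.0 UMIs and 4441 and 3037 CPM, while D28 B had 9272.0 and 7896.5 UMIs and 2808 and 2722 CPM. The immediate early genes, which respond quickly to stimulation and cell handling, summed to 415 and 332 CPM in the high and low cells of D45 A and to 395 and 349 CPM in D45 B. D28 B had 439.5 and 405 CPM. The order was reversed in D28 A, at 758 and 853 CPM, in D11 A, at 309.6 and 339.9 CPM, and in D11 B, at 326 and 340.3 CPM. The part of these in the result was not tested.

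The genes that went most closely with the summed members were ranked by the mean of Pearson's r over the 6 libraries, on log(1 + UMIs per 10000) in STMN2-positive cells, among 6774 genes detected in at least 10% of these cells in each library. The highest was DNAJA1, another HSP40 protein, at 0.37, with 0.31 to 0.45 in the single libraries. UBB, a ubiquitin gene, followed at 0.31, CFL1 at 0.30, and TUBA1B, PTMA, HSP90AB1 and EIF1 at 0.29. OAZ1, SERBP1, MARCKS and BEX1 stood at 0.28, and the median over all genes was 0.06. The summed members weigh HSPA8 most, as its level was the highest of the members in these cells of every library. These cells differ in depth, which every gene shares. In cells thinned to 2000 UMIs, a measure added after the data were seen with 9198 genes, DNAJA1 (0.25), UBB (0.20) and HSP90AB1 (0.17), the constitutive HSP90, were the highest, and the mitochondrial chaperonin genes HSPD1 (0.15) and HSPE1 (0.13) entered the first 12. HSP90AB1 stood at 0.43 and 0.31 in the D45 libraries and at 0.01 and 0.05 in the D11 libraries on this measure.

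The other chaperone genes, a list of mostly cytosolic and mitochondrial ones, did not move as 1 group. The list also holds SERPINH1 of the endoplasmic reticulum and the heat shock factor genes HSF1 and HSF2, which are not chaperones. Of 39 tested over all cells between D11 and D45, 5 rose and 7 fell, where 34.6% of all genes were called, with a median log2 fold change of −0.17 against −0.01 over all genes. With library totals alone 7 rose and 1 fell, with a median of 0.23 against 0.40. CRYAB, the small heat shock protein alpha B-crystallin, rose most, by 6.38 ± 0.439, from 0.683 and 0.811 CPM on D11 to 65.0 and 99.8 CPM on D45. HSPA6, an inducible HSP70, rose by 2.28 ± 0.359, from 1.08 and 1.29 to 9.93 and 5.56 CPM. HSPB8, a small heat shock protein, rose by 2.13 ± 0.257 to 10.6 and 11.4 CPM. FKBP5 (−1.07), HSPA14 (−1.04) and FKBP4 (−1.02) fell most, of which FKBP4 and FKBP5 are HSP90 co-chaperones.

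In STMN2-positive cells 5 of these 39 genes rose and 3 fell between D11 and D45, where 26.2% of all genes were called, with a median of 0.09 against 0.05. With library totals alone 8 rose and 0 fell. CRYAB rose by 5.81 ± 0.539 and HSPB8 by 1.37 ± 0.308. HSPA6 stood at 1.00 and 0.951 CPM on D11, at 3.33 and 2.71 on D28 and at 12.4 and 7.83 on D45, with no overlap between the days. It rose between D11 and D28 (log2 1.46 ± 0.360, adjusted p = 0.0330) and between D28 and D45 (log2 1.61 ± 0.330, adjusted p = 0.0342). FKBP5 (−1.03), FKBP4 (−0.73) and DNAJB5 (−0.67) fell. In the D28 to D45 step CRYAB also rose (log2 1.90), and HSPB8 (−1.47) and HSPBP1 (−0.94) fell.

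In COL1A1-positive cells 3 of 38 rose and 4 fell between D11 and D45, where 20.04% of all genes were called, with a median of −0.22 against 0.06. Among the rises was SERPINH1, the collagen chaperone HSP47 of the endoplasmic reticulum, by 1.62 ± 0.281 (adjusted p = 0.00745). CRYAB and HSPB8 were also called there, from at most 1.16 and 1.39 CPM on D11. HSPA14 (−1.40), DNAJB5 (−1.35) and TRAP1 (−0.92), a mitochondrial HSP90, fell most. On D45, 12 of 39 were higher in AQP4-positive than in COL1A1-positive cells and 5 were lower, where 46.4% of all genes were called. CRYAB (2.66 ± 0.138), HSPB8 (1.97 ± 0.190) and DNAJB5 (1.83 ± 0.153) led the first, and SERPINH1 (−2.25 ± 0.139), FKBP5 (−2.09 ± 0.153) and BAG1 (−0.73 ± 0.126) the second.

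Subunits of the chaperonin TRiC, the ring complex that folds actin and tubulin, fell between D11 and D45 in counts that rest on the scaling. With TMM factors 6 of its 7 subunits tested fell over all cells and 0 rose, where 34.6% of all genes were called, with a median log2 fold change of −0.74 against −0.01 over all genes, and with library totals alone 1 fell and 0 rose, with a median of −0.33 against 0.40. They summed to 1236 and 1280.3 CPM on D11, to 1017 and 1211 on D28 and to 962 and 900.0 on D45, so both D45 libraries lay below the other 4. CCT3 (−1.03 ± 0.178), CCT8 (−0.96 ± 0.166) and CCT5 (−0.91 ± 0.187) fell most with TMM factors. In STMN2-positive cells 3 of 7 fell, the same subunits CCT3, CCT5 and CCT8, where 26.2% of all genes were called, with a median of −0.74 against 0.05, and with library totals alone 0 fell, with a median of −0.45 against 0.34. In COL1A1-positive cells 2 of 6 fell, CCT3 and CCT8, where 20.04% of all genes were called, and 2 fell with library totals.

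Genes of endoplasmic reticulum stress and folding were called in both directions. Between D11 and D45 in STMN2-positive cells, 3 of 21 rose and 5 fell, where 26.2% of all genes were called, with a median of −0.30 against 0.05, and with library totals alone 8 rose and 2 fell. DNAJC3 (1.27 ± 0.214), DNAJB9 (0.92 ± 0.225) and CANX (0.77 ± 0.207), which are folding factors of this compartment, rose. CHAC1 (−1.91 ± 0.208), ASNS (−1.19 ± 0.171) and TRIB3 (−1.07 ± 0.221), which are known targets of the ATF4 response, fell most. Over all cells 3 of 21 rose and 4 fell, against 34.6% of all genes called, and with library totals 5 rose and 3 fell. In COL1A1-positive cells 2 rose and 2 fell, against 20.04% of all genes called. Of the 11 immediate early genes 0 rose and 1 fell over all cells between D11 and D45 in edgeR (2 rose and 0 fell with library totals), while 3 rose and 0 fell between D11 and D28 (6 and 0 with library totals), where 23.1% of all genes were called. They summed to 262 and 273 CPM on D11, to 1145 and 501 on D28 and to 419 and 443 on D45 over all cells. In COL1A1-positive cells they summed to 446 and 419 CPM on D11, to 1994 and 1152 on D28 and to 623 and 624 on D45, and in STMN2-positive cells to 324 and 332, 807 and 431, and 364 and 371. They were thus highest on D28, as HSPA8 was in these cells and DNAJB1 was in COL1A1-positive cells, and their part in those levels was not tested.

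**Figure D4:**
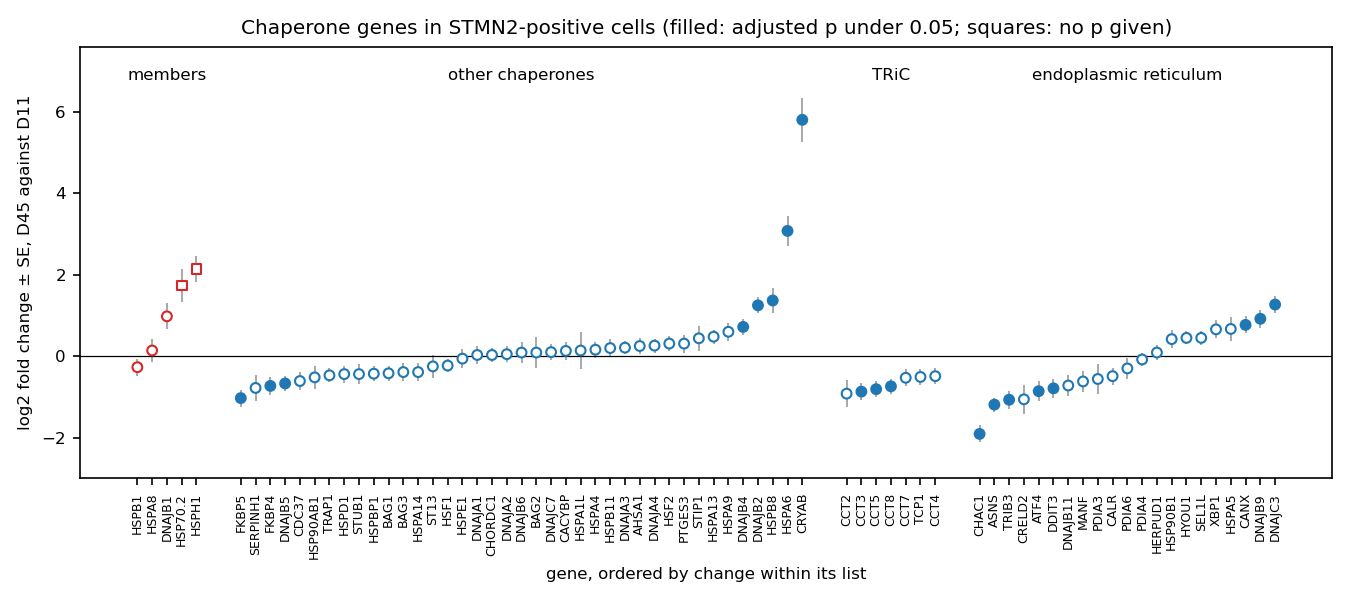
Log2 fold change ± SE (edgeR) between D11 and D45 in STMN2-positive cells for the 5 members (red) and 3 lists of other chaperone and stress genes (blue), ordered within each list; filled circles passed an adjusted p under 0.05, and squares are HSPH1 and HSP70.2, given with no p. HSPH1 (2.15), HSP70.2 (1.74), HSPA6 (3.08) and CRYAB (5.81) lay high, and filled circles of the TRiC list lay below 0.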

How the data were processed

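The authors aligned droplet-based single-cell reads of 6 pMLO libraries (D11, D28 and D45, A and B) to Sscrofa11.1 with Cell Ranger (8.0.1 per the file headers) and deposited filtered matrices of raw UMI counts per gene and cell. Seurat 4.3.0 is named in the submitters' processing notes. Cells with 200 to 7000 genes and at most 10% mitochondrial UMIs were kept, as in the study's methods, and doublets were not removed. Cells were classed by 2 UMIs of a marker, counts were summed per library and class, and sums of at least 20 cells were tested with edgeR 4.0.16 (quasi-likelihood, TMM, filterByExpr, Benjamini-Hochberg over all genes tested, two-sided, threshold 0.05) in R 4.3.3. DESeq2 1.42.0 was an alternative. CPM is UMIs per 1000000 UMIs of the same cells; exact Poisson 95% intervals on it cover counting error only. Scripts were tested on simulated data. The members and gene lists were chosen with earlier results of these data known. Genes named from the lists are up to 3 rises and 3 falls with the largest change past the threshold, and the 12 genes most like the members, of which 1 is not reported here. AQP4-positive cells were too few before D45, so the planned tests between days and the D28 part of their comparison with COL1A1-positive cells could not be fitted, and D45 alone was used.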

Additional observations from a re-analysis of the deposited data

Results flagged for a closer look

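The D11 to D45 change of HSPH1 differed in size between the cell classes, in a comparison added after the data were seen. It was picked out by a rule on the same fit, so the flag is no separate support. The log2 difference, COL1A1-positive minus STMN2-positive cells, was −1.70 ± 0.406 (edgeR with the library as a block). The single values were 38.1 and 63.9 CPM on D11 and 52.7 and 64.8 CPM on D45 in COL1A1-positive cells, and 47.2 and 52.4 CPM and 355 and 186 CPM in STMN2-positive cells. The COL1A1-positive values of D11 rest on 33 and 46 UMIs of HSPH1 in 65 and 48 cells. Those of D11 A held only 52.0 CPM of fibroblast markers. HSPH1 was chosen for its level in neuron-like cells of these libraries, so the difference is not independent of that choice, and it is given as a description with no p. Without a single library it ranged from −2.35 to −1.07.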

How the results depend on the processing

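Between D11 and D45, the rise of HSPH1 over all cells kept its direction in all 14 alternatives (log2 1.60 to 2.53). They refit the same libraries from which HSPH1 was chosen, so they show the dependence on processing and are no separate support. Of all alternatives for the 5 members, 23 changed sign. Calls kept, lost or gained are not counted over all of them, because the comparisons given with no p are among them. Only 2 libraries a day and the few COL1A1-positive cells on D11 limit these tests, and where 1 library is left out the lone sample of that day is assumed to vary like the other days. The cause of the changes below was not tested.

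Sign changed with library totals alone, added after the data were seen, for HSPB1 over all cells (D11 to D28, 0.24), in STMN2-positive cells (D11 to D45, 0.02) and in the D11 to D45 difference between classes (−0.23). It changed without a filter on low counts for HSPA8 over all cells (D11 to D45, −0.02). With positivity from 3 UMIs it changed in COL1A1-positive cells between D11 and D45 for HSPA8 (0.12) and HSPB1 (0.30), for HSP70.2 in AQP4-positive against COL1A1-positive cells (0.16) and for HSP70.2 in the D11 to D45 difference between classes (0.02).

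Leaving out 1 library at a time turned the sign of some members that were not called, with log2 values ranging for HSPB1 over all cells (D11 to D28) from −0.13 to 0.14, HSP70.2 over all cells (D11 to D28) from −0.00 to 0.90, DNAJB1 over all cells (D28 to D45) from −0.64 to 0.12, HSPA8 over all cells (D11 to D45) from −0.05 to 0.13, DNAJB1 in STMN2-positive cells (D28 to D45) from −0.29 to 0.73, HSPB1 in COL1A1-positive cells (D11 to D28) from −0.02 to 0.59. The other such ranges were, for HSP70.2 in COL1A1-positive cells (D11 to D28) from −0.01 to 1.27, HSPH1 in COL1A1-positive cells (D11 to D45) from −0.07 to 0.76, HSPA8 in COL1A1-positive cells (D11 to D45) from −0.37 to 0.14, HSPB1 in COL1A1-positive cells (D11 to D45) from −0.41 to 0.20, HSPB1 in the D28 to D45 difference between classes from −0.02 to 0.32, HSP70.2 in the D11 to D45 difference between classes from −0.77 to 0.33, DNAJB1 in the D11 to D45 difference between classes from −0.65 to 0.38.

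The number of genes called moved by over 1.5 times in these cases. With the replicate letter as a block it was 3314 over all cells (D11 to D28), 628 over all cells (D28 to D45), 1977 in STMN2-positive cells (D11 to D28), 526 in STMN2-positive cells (D28 to D45), 208 in COL1A1-positive cells (D28 to D45). With the DESeq2 test it was 4336 over all cells (D28 to D45), 3027 in STMN2-positive cells (D28 to D45), 997 in COL1A1-positive cells (D28 to D45), 742 in the D28 to D45 difference between classes. With no filter on low counts it was 2558 in STMN2-positive cells (D28 to D45), 3070 in COL1A1-positive cells (D11 to D28), 2019 in COL1A1-positive cells (D28 to D45), 1642 in the D28 to D45 difference between classes. With positivity from 1 UMI it was 2107 in STMN2-positive cells (D28 to D45), 2564 in COL1A1-positive cells (D11 to D28), 820 in COL1A1-positive cells (D28 to D45). With positivity from 3 UMIs it was 705 in COL1A1-positive cells (D11 to D28), 257 in COL1A1-positive cells (D28 to D45), 1480 in COL1A1-positive cells (D11 to D45). With library totals, no TMM it was 229 in COL1A1-positive cells (D28 to D45). With double-positive cells kept it was 103 in the D28 to D45 difference between classes. Without 1 library at a time it ranged from 1112 to 10545 over all cells (D11 to D28), 0 to 10003 over all cells (D28 to D45), 2804 to 12286 over all cells (D11 to D45), 742 to 8101 in STMN2-positive cells (D11 to D28), 2 to 9054 in STMN2-positive cells (D28 to D45), 1555 to 9891 in STMN2-positive cells (D11 to D45), 0 to 4057 in COL1A1-positive cells (D11 to D28), 1 to 4140 in COL1A1-positive cells (D28 to D45), 559 to 4225 in COL1A1-positive cells (D11 to D45), 528 to 1191 in the D28 to D45 difference between classes, 1453 to 4156 in the D11 to D45 difference between classes.

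The labels do not say whether the letters A and B pair the libraries across days, and the main fits between days did not pair them. The correlation over genes of the A minus B differences between days ran from −0.55 to 0.20 over all cells. It ran from −0.45 to 0.15 in STMN2-positive and from −0.14 to 0.07 in COL1A1-positive cells. In each of these it was negative between D28 and either other day, and positive between D11 and D45. Such correlations cannot decide whether the libraries are paired. With the letter as a block, HSP70.2 over all cells (D11 to D45) lost its call, and the number of genes called is given above where it moved. Comparisons between classes have the library as a block already. Without a D45 library AQP4-positive against COL1A1-positive cells could not be fitted, and the AQP4-positive comparisons between days were not run.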
